A study of Mus musculus with 7 samples.

Results

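Interferon-response cells were looked for among DN4 γδ+ thymocytes of WT mice, the late double-negative (DN) cells that carry a γδ T-cell receptor (TCR) on their surface and lack CD4 and CD8. Of the 7353 barcodes of this library that were kept, 343 (4.66%, 95% interval 4.19 to 5.17) held 5 or more unique molecular identifiers (UMIs, each marking 1 captured transcript) of Ifit1, Ifit3, Isg15 and Rsad2 together, and these are called members. A barcode was kept with at least 1000 detected genes, at most 10% of its UMIs from mitochondrial genes and at most 1 UMI of the B cell genes Cd79a, Cd79b and Ms4a1. The members were set beside the 5241 kept barcodes with 0 UMIs of the 4 genes, called zero-UMI barcodes, and 1769 barcodes with 1 to 4 UMIs belonged to neither set. In all, the series held 90016 barcodes, of which 66446 were kept by the same filter.

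The series comprised 7 single-cell 3′ libraries of sorted thymocytes, 1 per group. C57BL/6 WT mice of 6 to 8 weeks, female and male, gave pooled thymi for 5 groups, of which DN3a came first in development, DN3b and DN4 cells without surface γδ TCR were named DN3b γδ− and DN4 γδ−, and those with it DN3b γδ+ and DN4 γδ+. CD4+ and CD8+ cells had been removed from these with beads. The groups Lat-KO DN3 γδ− and Lat-KO DN3 γδint came from C57BL/6 mice of the genotype Lat-/-TCRd-H2BEGFP, which lack LAT, an adaptor that carries TCR signals inward, and whose TCR δ locus also reports through a nuclear green fluorescent protein. The γδint cells had an intermediate level of surface γδ TCR. No WT group carried the reporter, so genotype and reporter cannot be told apart between these libraries. According to the methods of the study the DN4 γδ+ gate took CD24+ CD44low cells without CD25 or NK1.1 and with surface TCRδ and CD3, and 500 splenic B lymphocytes had been added to each library. With 1 library of pooled mice per group there was no replicate and no test, and every interval below covers counting error only.

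Interferons are secreted alarm proteins. Type I interferons bind the receptor of IFNAR1 and IFNAR2, whose kinases JAK1 and TYK2 activate STAT proteins such as STAT2. With IRF9 these form the complex ISGF3, which binds interferon-stimulated response elements in the promoters of interferon-stimulated genes. Type II interferon (IFN-γ) acts on an overlapping set, among them the interferon-inducible GTPases and the genes of antigen presentation by MHC class I. The 4 genes of the rule are typical targets: Ifit1 and Ifit3 code for proteins that bind foreign RNA, Isg15 for a ubiquitin-like modifier and Rsad2 for viperin, an enzyme that makes a chain-terminating nucleotide. In the thymus, interferon is made also in the absence of infection, and thymocytes carry its receptors.

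All 4 genes of the rule had an interferon-stimulated response element of the simplest kind in the 250 bases before their start. The letters searched were GAAA, any 2 bases and GAAA again, or on the other strand TTTC, any 2 bases and TTTC. The promoters below are shown to let the element be seen in the genes that defined the members and in the first 3 of the highest other genes whose promoter held it. They are the last 200 bases before the transcription start, on the strand of the gene, from RefSeq (GRCm38.p6, the mm10 build of the files), and capitals mark the element. Ifit1 (chr19:34640689-34640888, plus strand) and Ifit3 (chr19:34583329-34583528, plus strand) each held 2 elements, Isg15 (chr4:156200819-156201018, minus strand) 3 that overlap in 1 run, and Rsad2 (chr12:26456453-26456652, minus strand) 1. Slfn5 (chr11:82951902-82952101, plus strand) and Ifi206 (chr1:173491319-173491518, minus strand) held 1 each, and Bst2 (chr8:71537473-71537672, minus strand) 2 that overlap. The GENCODE annotation differs here. It starts Slfn5 at chr11:82951349, so by it the Slfn5 window lies inside the gene. It starts Ifi206 at chr1:173491041, farther from the window.
Ifit1: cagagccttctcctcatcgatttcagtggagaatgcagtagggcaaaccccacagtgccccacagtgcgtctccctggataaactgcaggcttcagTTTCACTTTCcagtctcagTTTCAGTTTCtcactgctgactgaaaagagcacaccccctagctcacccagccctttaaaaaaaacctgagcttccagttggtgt
Ifit3: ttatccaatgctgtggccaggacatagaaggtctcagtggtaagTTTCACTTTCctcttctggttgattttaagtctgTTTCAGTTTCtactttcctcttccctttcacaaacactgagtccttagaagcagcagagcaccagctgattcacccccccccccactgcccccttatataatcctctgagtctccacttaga
Isg15: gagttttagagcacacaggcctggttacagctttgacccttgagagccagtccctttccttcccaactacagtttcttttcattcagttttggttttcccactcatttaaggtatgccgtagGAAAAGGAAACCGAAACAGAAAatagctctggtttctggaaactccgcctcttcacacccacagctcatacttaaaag
Rsad2: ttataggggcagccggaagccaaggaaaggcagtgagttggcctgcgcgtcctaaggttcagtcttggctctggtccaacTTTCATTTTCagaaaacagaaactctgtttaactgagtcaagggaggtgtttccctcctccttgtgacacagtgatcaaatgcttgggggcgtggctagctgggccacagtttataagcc
Slfn5: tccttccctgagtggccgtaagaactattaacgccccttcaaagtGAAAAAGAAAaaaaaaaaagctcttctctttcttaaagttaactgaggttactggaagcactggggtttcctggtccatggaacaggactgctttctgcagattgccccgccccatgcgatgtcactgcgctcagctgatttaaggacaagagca
Ifi206: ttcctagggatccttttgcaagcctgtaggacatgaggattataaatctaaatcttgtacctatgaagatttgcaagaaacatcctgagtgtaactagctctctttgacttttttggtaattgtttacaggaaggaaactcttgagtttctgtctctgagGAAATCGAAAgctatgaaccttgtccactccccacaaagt
Bst2: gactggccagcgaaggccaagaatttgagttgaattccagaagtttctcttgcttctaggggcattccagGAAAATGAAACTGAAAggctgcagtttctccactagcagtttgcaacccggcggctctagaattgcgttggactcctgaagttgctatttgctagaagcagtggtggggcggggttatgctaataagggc
The first bases of the elements lay 104 and 85 bases before the start of Ifit1, 156 and 122 before that of Ifit3, 78, 72 and 66 before that of Isg15 and 120 before that of Rsad2.

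Over all 32851 promoter windows of the table, 978 (2.98%) held the element on either strand. Of the 5405 genes compared between members and zero-UMI barcodes, 4368 had a window and 139 of these (3.18%) held it. Among the 56 genes at least 2-fold higher in members, described below, 47 had a window and 15 (31.9%) held the element; among the 16 at least 2-fold lower, 9 had a window and 0 held it. A match is a stretch of letters and no measured binding site. Rtp4, Ifi27l2a, Parp14, Zbp1, Usp18 and Parp9 were not in the table, and Irf7, Isg20 and Xaf1 were among the high genes with no match in the window.

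The 4 genes chose the members, so their values are a description. Isg15 (chr4:156199424-156200818 by GENCODE) gave 2777 of the 4573 UMIs of the rule in members (60.7%) and was found in 342 of the 343, with 0 UMIs in the lowest member, a median of 6 and 59 in the highest. Ifit1 (chr19:34640871-34650009) gave 992 UMIs in 253 members, with a median of 2 and a highest value of 24. Rsad2 (chr12:26442746-26456452) gave 367 UMIs in 155 members, and Ifit3 (chr19:34583531-34588731) 437 UMIs in 122 members, with medians of 0 and highest values of 16 and 48. Ifit3 has a near-identical neighbour, Ifit3b, so the split of reads between them is uncertain. Members therefore rested mainly on Isg15, and 251 of them reached 5 UMIs on Isg15 alone, while 130 would have passed without it.

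The sum of the 4 genes ran from 5 to 141 UMIs per member with a median of 9, and 64 members had 20 or more. There was no gap at the limit: 80 barcodes lay just outside it with 4 UMIs and 54 just inside with 5. Other interferon-stimulated genes, taken as a list of 132 measured genes without the 4, summed to 10666 units of CPM (counts scaled to a common total) in the barcodes with 4 UMIs and to 10391 CPM in those with 5. The members are thus the upper range of a continuous distribution, and 268 barcodes with 3 to 4 UMIs lay close below the limit.

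**Figure D1:**
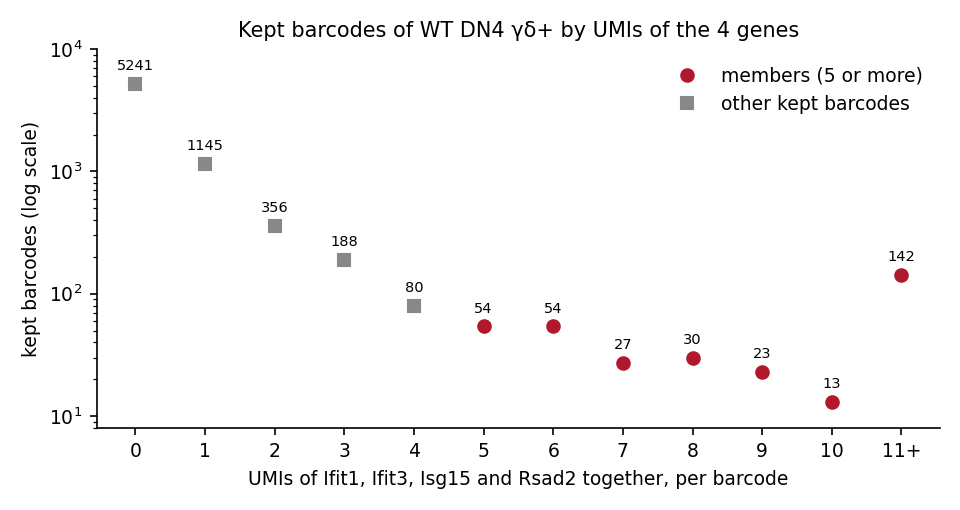
Number of kept WT DN4 γδ+ barcodes (log axis) by their UMIs of Ifit1, Ifit3, Isg15 and Rsad2 together, with the members (5 or more) as red circles and the other kept barcodes as grey squares. The numbers decline from 5241 barcodes at 0 UMIs through 80 at 4 and 54 at 5 with no gap, and the last point gathers the 142 barcodes with 11 or more.

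Each of the 4 genes could be set against the other 3, in barcodes chosen without it. The 130 barcodes with 5 or more UMIs of Ifit1, Ifit3 and Rsad2 held Isg15 in 99.2% of cases, against 20.6% of the 6598 barcodes with 0 UMIs of the 3, and its level was 1233 against 35.7 CPM (log2 ratio 5.11, 95% interval 5.01 to 5.21). Ifit1 stood at 296 against 3.93 CPM when the other 3 chose the barcodes (log2 ratio 6.23, 6.00 to 6.47), and Rsad2 at 106 against 1.14 CPM (6.55, 6.13 to 7.0). Ifit3 reached 129 against 1.01 CPM (7.01, 6.57 to 7.48). The 4 genes were thus found together in the same barcodes. Within the members 54 (15.7%) held 1 of the 4 genes, which in all of them was Isg15, 116 held 2, 106 held 3 and 67 (19.5%) held all 4.

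Free RNA and merged cells were looked at next. In the 140 barcodes of spiked B cells in the same library (10 or more UMIs of the 3 B cell genes), 3 passed the rule (2.14%, 0.444 to 6.13), with a median of 3892 UMIs per barcode against 7179 in kept barcodes. When every barcode was thinned to 4000 UMIs, 174 of 6897 kept barcodes (2.52%, 2.17 to 2.92) and 3 of 67 B cell barcodes (4.48%, 0.933 to 12.5) passed, with 456 kept barcodes too shallow. The share of barcodes past the rule was therefore not above that in the spiked B cells at this depth, and B cells also answer interferon, so they are no type that lacks these genes. The level of the 4 genes is higher in members by the choice of members and says nothing on this. Trdc, the γδ TCR constant gene, was found in 47.8% of the B cell barcodes at 4000 UMIs, and free RNA and barcodes that hold a B cell with a T cell cannot be told apart in that share.

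Members were slightly deeper than the barcodes they were compared with. The median was 7571 UMIs and 2363 genes in members and 6823 UMIs and 2237 genes in zero-UMI barcodes, as a limit in UMIs favours. Mitochondrial UMIs made a median of 3.89% and 3.79%. Of the members, 6 shared their barcode sequence with a barcode of another library, and in 0 cases was that barcode a member there. With zero-UMI barcodes weighted to the depths of members, 57 genes were 2-fold higher and 14 lower, against 56 and 16 without weights.

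The members held many other interferon-stimulated genes. At 4000 UMIs per barcode the lowest member showed 8 of the 132 genes of the list, the median member 32 and the highest 72, against 2, 14 and 37 in zero-UMI barcodes and 10, 21 and 44 in B cell barcodes. The ranges of members and zero-UMI barcodes thus overlapped, while the medians differed by more than a factor of 2. Summed, the list stood at 14289 CPM in members and 5295 CPM in zero-UMI barcodes.

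**Figure D2:**
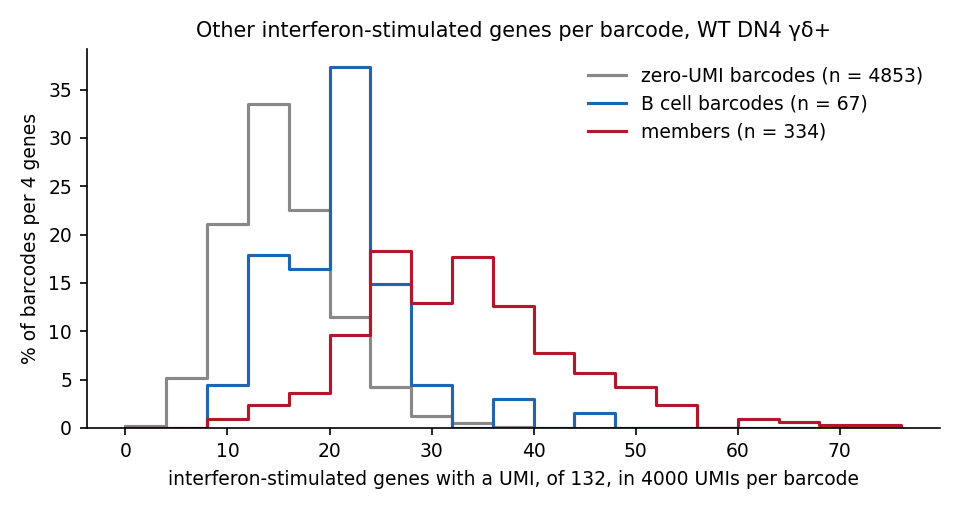
Percent of barcodes (vertical axis, per 4 genes) by the number of interferon-stimulated genes other than the 4 of the rule with a UMI among 132, each barcode thinned to 4000 UMIs, for 334 members (red), 4853 zero-UMI barcodes (grey) and 67 B cell barcodes (blue). The medians are 32, 14 and 21 genes, and the 3 distributions overlap.

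Across the transcriptome, UMIs were summed over members (3268414 in total) and over zero-UMI barcodes (46290495 in total) and scaled to CPM. Genes with at least 20 CPM over all kept barcodes were compared, 5405 without the 4 of the rule, and a gene is called higher or lower here at a ratio of 2-fold or more. Higher in members were 56 genes (1.04% of those compared) and lower 16 (0.296%), with a median log2 ratio of −0.05 over all genes compared. Of the 56, 41 were in the interferon-stimulated list, 4 more among the interferon GTPases and 4 more among the MHC class I genes. The remaining 7 were Mitd1, Ctss, Trafd1, Gm20559, Ncoa7, Treml2 and AW112010. Since members were chosen by 4 genes of this program, the counts describe which genes were found in the same barcodes. A total of 11 of the 56 lay under 20 CPM in zero-UMI barcodes, and 2 of them, Tnfsf10 and Igtp, were under 20 CPM over all kept barcodes other than members, so that these 2 were compared only through the level in members and had to be higher.

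Among the genes compared, 62 of the interferon-stimulated list were present, of which 41 were at least 2-fold higher and 0 lower, with a median log2 ratio of 1.57 against −0.05 over all genes. Of the 62, 7 (Irf7, Ifi206, Isg20, Xaf1, Slfn8, Adar and Tnfsf10) were under 20 CPM in zero-UMI barcodes, and of the 55 with at least 20 CPM in zero-UMI barcodes 34 were higher, with a median of 1.5. The other 70 measured genes of the list lay under 20 CPM, and 5 listed symbols were not among the features. The highest of all was Rtp4, which codes for a zinc-finger protein that chaperones receptors and restrains viral replication. It was found in 289 members with 0 UMIs in the lowest, a median of 2 and 15 in the highest, against 732 of 5241 zero-UMI barcodes with a highest value of 7. Its level was 244 against 22 CPM (log2 ratio 3.47, 3.33 to 3.60), and 16.4 CPM in B cell barcodes. Slfn5 (a Schlafen family protein, 218 against 20.8 CPM) came next with a log2 ratio of 3.38, and Xaf1 (a pro-apoptotic factor, 148 against 17.9 CPM) was the sixth with 3.05. Of the 30 highest genes, 26 belonged to this list and 29 to it or to the GTPase list. Gm20559 was the exception, with 89.3 against 19.6 CPM, and 108 CPM in B cell barcodes. Ifi27l2a (606 against 453 CPM), Ifi209 (159 against 149 CPM) and Samhd1 (191 against 169 CPM) also stood higher in B cell barcodes than in members. The rest of the 30 stood lower in B cell barcodes than in members. Slfn5 and Ifi206 belong to clusters of close copies, so their share of reads is uncertain.

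The factors that carry the signal were higher in part. Irf7, the master regulator of late type I interferon responses, had a median of 1 UMI and a highest value of 13 in members and stood at 173 against 17 CPM (log2 ratio 3.35, 3.19 to 3.50). At 4000 UMIs it was found in 48.5% of members (43.0 to 54.0), in 7.97% of zero-UMI barcodes and in 8.96% of B cell barcodes (3.36 to 18.5). Irf9, the DNA-binding part of ISGF3, stood at 75.0 against 26.3 CPM (1.51, 1.31 to 1.71). Stat2, under the 20 CPM limit, had 81 and 450 UMIs in the 2 sets (1.35, 0.99 to 1.69). Jak1 (0.10), Jak2 (0.36), Stat3 (0.23), Stat4 (−0.18), Irf1 (0.55), Irf2 (0.48) and Irf3 (−0.22) lay within 2-fold on the log2 scale, Irf3 being the factor that sensors activate without needing new synthesis.

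Of the effectors that act on viral RNA and particles, 4 of 6 compared genes were higher, with a median log2 ratio of 1.59. Isg20 and Adar were under 20 CPM in zero-UMI barcodes. Isg20, an exonuclease, stood at 160 against 17.1 CPM (log2 ratio 3.22), Bst2 or tetherin, which holds budding virus at the membrane, at 445 against 74.7 CPM (2.58), and Samhd1, a nucleotide hydrolase, at 169 against 47.3 CPM (1.83). Adar, which edits double-stranded RNA, followed with 1.35. Zc3hav1 (0.55), a binder of CpG-rich RNA, lay within 2-fold. Of the 23 measured genes of this group 6 passed 20 CPM. Below the limit were genes of the oligoadenylate synthase family, which answers double-stranded RNA: Oasl2 was found in 105 members and 84 zero-UMI barcodes, at 53.2 against 1.92 CPM (4.79, 4.41 to 5.18), and Oas3 at 72.5 against 8.43 CPM (3.11, 2.87 to 3.34). Ifit3b had 94 and 5 UMIs (8.06, 6.78 to 9.71), a ratio that shares reads with Ifit3. Ifitm3, which blocks viral fusion, had 114 and 52 UMIs (4.96). Ifitm2 with 10 and 323 UMIs (−1.19, −2.26 to −0.29) and Ifitm10 with 6 and 257 UMIs were lower, on few counts.

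Of the sensors of nucleic acid, 2 of 4 compared genes were higher. Zbp1, which recognises left-handed double helices, stood at 208 against 41.2 CPM (log2 ratio 2.34) and Ddx58 or RIG-I, which recognises viral RNA ends, at 93.6 against 23.1 CPM (2.02). Dhx58 (44.7 against 3.43 CPM), Ddx60 (68.8 against 7.28 CPM) and Ifih1 or MDA5 (37.3 against 4.54 CPM) lay under the limit with log2 ratios of 3.70, 3.24 and 3.04. Tmem173 or STING (0.18), Aim2 (0.08) and the adaptor Mavs (−0.31, −1.02 to 0.32, under the limit) did not differ by 2-fold. Of the enzymes that attach ISG15 to proteins, the ligases Herc6 (2.02) and Trim25 (1.83) were higher, and so was Usp18 (2.28), which removes ISG15 and damps the IFNAR2 receptor. Usp18 was found in 44.6% of members, 12.4% of zero-UMI barcodes and 10.4% of B cell barcodes at 4000 UMIs. The E1 and E2 enzymes Uba7 (1.16, 0.88 to 1.44) and Ube2l6 (30 and 11 UMIs) lay under 20 CPM.

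The ligand genes lay under 20 CPM, and the 4 receptor genes compared stayed within 2-fold. The list of 21 interferon genes had 19 with 0 UMIs in members and 18 with 0 in zero-UMI barcodes, and none passed 20 CPM. Ifng, the gene for IFN-γ, had 26 UMIs in members and 330 in zero-UMI barcodes (7.95 against 7.13 CPM, log2 ratio 0.16, −0.48 to 0.74). A count of 0 in members allows up to 3 of their 3268414 UMIs. Ifnar1 (0.26), Ifnar2 (0.27) and Ifngr2 (0.19) lay slightly above 0. Ifngr1, the ligand-binding chain of the IFN-γ receptor, lay below 0 by less than 2-fold, at 188 against 315 CPM (−0.74, −0.86 to −0.62). Of the feedback inhibitors, Socs1 stood at 97.0 against 66.5 CPM (0.54, 0.37 to 0.71), and Ptpn2, Ptpn6 and Pias1 lay between −0.12 and 0.19.

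Genes shared by type I and type II interferon followed. Of 5 GTPases that passed 20 CPM, 4 were higher with a median log2 ratio of 2.06: Irgm1 (119 against 21.5 CPM, 2.47), Igtp (89.3 against 16.9 CPM, 2.40), Gbp7 (155 against 37.1 CPM, 2.06) and Gbp4 (86.0 against 33.6 CPM, 1.36). Igtp passed 20 CPM only through its level in members and had to be higher. These proteins attack the vacuoles of intracellular parasites. Gbp8 stood at 0.96. Under the limit, Cxcl10, a chemokine gene, had 203 UMIs in members, but only 33 members held any, the highest held 86, and the 5 highest held 71.9% of the UMIs. In zero-UMI barcodes it had 165 UMIs in 67 barcodes. Its log2 ratio of 4.12 therefore rested on few cells.

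The shift of MHC class I genes was smaller. All 18 compared lay above 0, with a median of 0.56 and 4 past 2-fold. These were Tapbp or tapasin (150 against 63.3 CPM, log2 ratio 1.24), the peptide transporter gene Tap1 (104 against 45.0 CPM, 1.20), and the non-classical H2-T22 (1.05) and H2-T23 (1.05). The light chain B2m stood at 1824 against 1121 CPM (0.70, 0.66 to 0.74) and the classical H2-K1 and H2-D1 at 0.50 and 0.46. The immunoproteasome genes Psmb8, Psmb9 and Psmb10 lay at 0.43, 0.67 and 0.99. Nlrc5, the transactivator of these genes, was under the limit with 91 and 377 UMIs (1.77, 1.43 to 2.11). H2-Q7 lay at 0.04 (−0.11 to 0.18), and reads of the H2-Q genes may be divided among close copies.

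**Figure D3:**
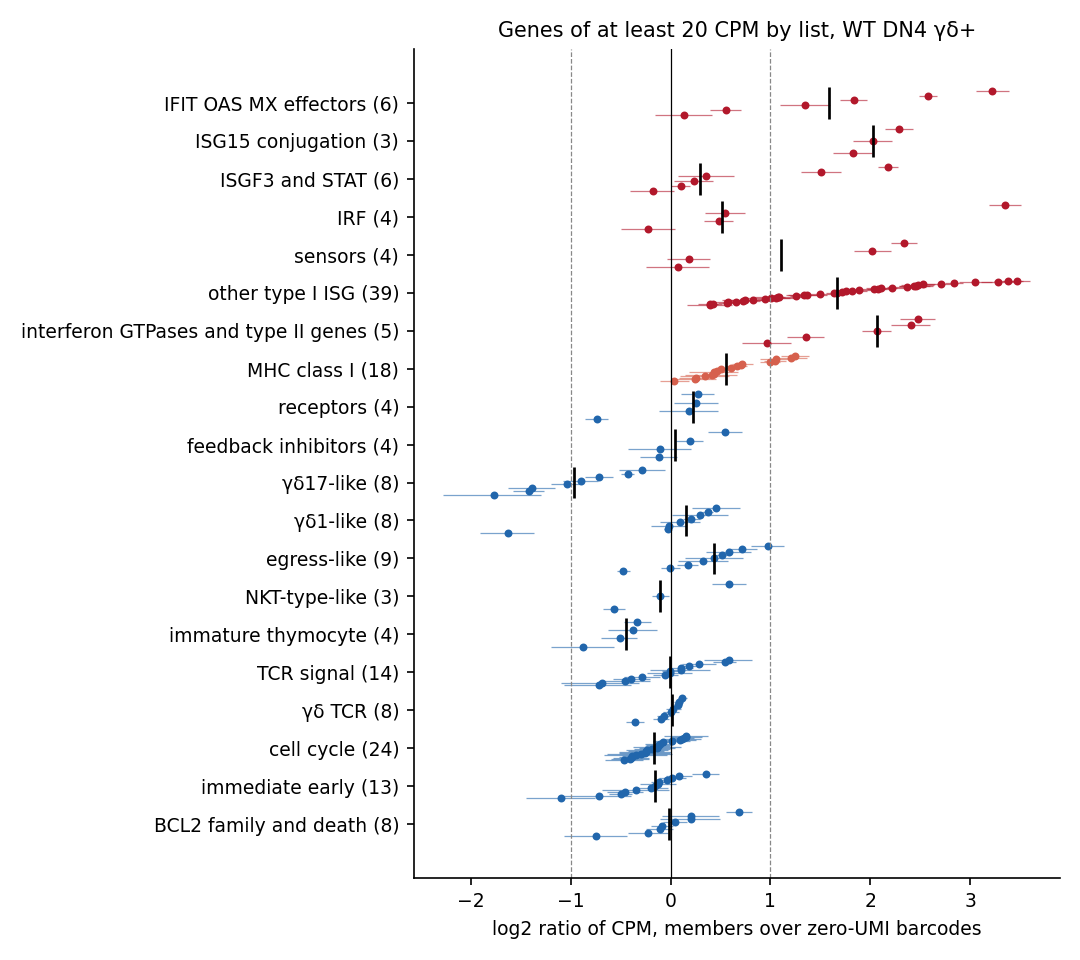
Log2 ratio of CPM, members over zero-UMI barcodes of WT DN4 γδ+, for each gene of at least 20 CPM (points, with 95% counting intervals as lines), by list with the number of genes compared in brackets; black bars are list medians, and dashed lines mark 2-fold. Effectors, ISG15 conjugation, sensors, other type I genes, GTPases and MHC class I lie to the right and γδ17-like genes to the left. ISGF3 and STAT (median 0.30) and IRF (median 0.52) genes are spread, with Stat4 (−0.18) and Irf3 (−0.22) below 0. Feedback inhibitor, γδ TCR and cell cycle medians lie near 0.

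The program was graded over the 4 genes of the rule. The 132 genes of the list summed to 5295 CPM at 0 UMIs, 6274 CPM at 1 to 2, 9039 CPM at 3 to 4, 11361 CPM at 5 to 9, 15801 CPM at 10 to 19 and 20271 CPM at 20 or more. Median depth did not follow the same order, with 6823, 8400, 8551, 7836, 7002 and 7863 UMIs. Irf7 went from 17 to 271 CPM and Ly6a, the Sca-1 surface antigen, from 11.9 to 172 CPM. MHC class I genes went from 4313 to 7584 CPM. By the number of rule genes, the median log2 ratio over the same 62 genes was 0.85 in the 54 members with Isg15 alone, 1.35 with 2 genes, 1.74 with 3 and 2.19 with 4. The members with Isg15 alone were deeper, with a median of 10992 UMIs against 6764 UMIs in members with all 4. In them the 132 genes of the list summed to 8822 CPM, against 5295 CPM in zero-UMI barcodes and 22016 CPM in members with all 4. The barcodes with only Isg15 thus held the program at a lower level.

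Over these 6 bins, the 5 genes outside the rule whose level was most like that of the 4 genes, by Pearson correlation of log2(CPM + 1), were Cotl1 (r = 0.966), Add3 (0.963), Ostf1 (0.949), Rtp4 (0.948) and Cd28 (0.946). The bins come from 1 library and differ in depth, so these are descriptions. Of the 5, only Rtp4 passed 2-fold. Cotl1, an actin-binding protein, went from 306 to 421 CPM and Cd28, a co-stimulatory receptor, from 134 to 220 CPM, while the rule genes went from 0 to 3009 CPM.

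The γδ subset genes were compared between members and zero-UMI barcodes as well. γδ17-like genes, which mark the cells set to make interleukin-17, were lower where they passed 20 CPM, as 8 of 16 did. Of these 8, 4 were at least 2-fold lower and 0 higher, with a median log2 ratio of −0.97. Over all genes compared, 0.296% were 2-fold lower. The list was not uniform: over all 16 genes with no minimum, 5 were at least 2-fold lower and 2 higher, with a median of −0.50. Maf, a transcription factor of this subset, stood at 108 against 289 CPM (−1.42, −1.57 to −1.26), Blk, a Src-family kinase, at 48.3 against 127 CPM (−1.39) and Sox13 at 111 against 227 CPM (−1.04). Etv5 at −0.90, 5830411N06Rik at −0.71, Sox4 at −0.43 and Cd163l1 at −0.28 were below 0 by less than 2-fold. At 4000 UMIs Maf was found in 27.5% of members (22.8 to 32.7) and 49.9% of zero-UMI barcodes, and in 20.9% of B cell barcodes (11.9 to 32.6), and the intervals of members and B cell barcodes overlapped.

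The γδ17-like genes together went from 1973 CPM at 0 UMIs of the rule to 1473 CPM at 1 to 2 and 1049 CPM at 20 or more. Other low genes were Ccl5 (35.5 against 110 CPM, −1.63), Nebl (−1.64), Nav2 (−1.61), Ccl4 (−1.28), Myo6 (−1.22), Aqp11 (−1.22) and Cbfa2t3 (−1.21), and H2-Q2 (−1.26), which was not in the MHC class I list. At full depth Ccl5 was found in 6.12% of members and 9.92% of zero-UMI barcodes, Ccl4 in 4.96% and 10.5%, and Myo6 in 14.0% and 21.8%. The ratios of Ccl5 and Ccl4 thus rested on few members.

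S1pr1, the receptor by which mature thymocytes leave for the blood, stood at 106 against 54.1 CPM (log2 ratio 0.97, 0.81 to 1.14), just under 2-fold. Members held it in 163 of 343 barcodes with a highest value of 10. At 4000 UMIs it was found in 34.4% of members (29.3 to 39.8) and 16.9% of zero-UMI barcodes (15.9 to 18.0), and B cell barcodes, which use this receptor themselves, held it in 43.3%. Of 1350 barcodes with S1pr1 at that depth 115 were members (8.52%, 7.08 to 10.1), against 219 of the 5547 without (3.95%, 3.45 to 4.49), and with the rule applied at 4000 UMIs the shares were 5.56% and 1.78%. Of the 9 egress-like genes 7 lay above 0 with a median of 0.44. Itgb7, a gut-homing integrin chain, stood at 0.72, Ccr7 at 0.58 and Klf2, which drives S1pr1, at 0.52, while Ccr9 stood at 687 against 952 CPM (−0.47, −0.53 to −0.41). The sum of the 9 genes, of which Ccr9 was a main part, was 2024 CPM in members and 1996 CPM in zero-UMI barcodes. S1pr1 was also not graded to the end: it was 117 CPM at 10 to 19 UMIs and 88.8 CPM at 20 or more.

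The γδ1-like genes lay near 0, with a median of 0.15 over 8 genes, of which 1, Ccl5, was past 2-fold and lower. Ccl5 was found in only 6.12% of members. Under the limit, Eomes with 9 and 520 UMIs (−2.03, −3.17 to −1.09) and Klre1 with 2 and 397 UMIs (−3.81, −6.86 to −1.95) were lower, Klrd1 stood at −0.68 and Gzmb with 10 and 13 UMIs (3.45, 2.10 to 4.75) was higher. Ikzf2, which codes for Helios, stood at 852 against 658 CPM (log2 ratio 0.37), Il2rb at −0.01 and Gzma at −0.03. Barcodes with 2 or more UMIs of Klrd1, Klrk1, Nkg7, Il2rb and Xcl1 at 4000 UMIs were members in 5.72% (4.92 to 6.61) of 3041 cases and the others in 4.15% (3.54 to 4.83) of 3856. At equal depth the shares were 3.03% (2.45 to 3.70) and 2.13% (1.69 to 2.63), with overlapping intervals. Zbtb16, which codes for PLZF, was under 20 CPM, with 57 and 417 UMIs (0.95, 0.53 to 1.36), and 11 of 163 barcodes that held it at 4000 UMIs were members (6.75%, 3.42 to 11.8) against 4.80% of the others, and at equal depth 2 barcodes or 1.23% (0.149 to 4.36) against 2.55%, with overlapping intervals (2.19 to 2.96 for the others). The cytokine genes Il4, with 31 and 123 UMIs (1.84, 1.22 to 2.41), and Il13, with 10 and 50 UMIs (1.5, 0.36 to 2.5), were higher in members on few counts, while Gata3, their regulator, stood at −0.56. Of 12 immature thymocyte genes 4 passed 20 CPM and 0 of these were past 2-fold, with Cd24a at −0.51 and Hes1, a Notch target, at −0.87. With no minimum, 3 of the 12 were at least 2-fold lower and 0 higher, and Il2ra, under the limit, stood at 0.44 (−0.38 to 1.16). Genes that TCR signals induce had a median of −0.01 over 14 genes, with Cd28 and Tnfrsf9 at 0.54 and 0.58 and Egr1 at −0.72.

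**Figure D4:**
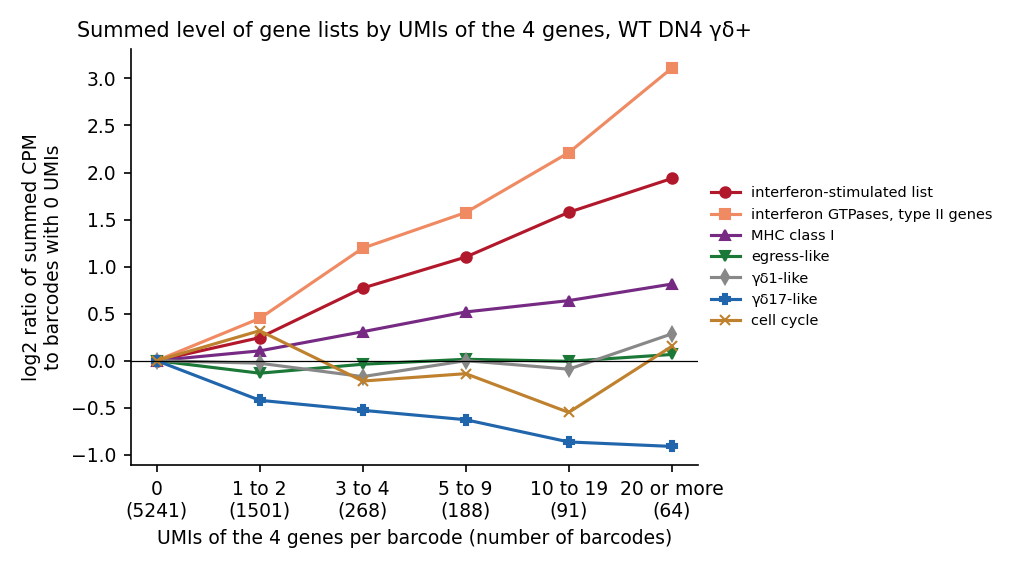
Log2 ratio of the summed CPM of gene lists to the level in the 5241 barcodes with 0 UMIs, by UMIs of the 4 rule genes (horizontal axis, barcodes in brackets), WT DN4 γδ+. The interferon-stimulated list goes from 5295 to 20271 CPM and the γδ17-like list from 1973 to 1049 CPM, while the egress-like sum lies between 1819 and 2089 CPM and the γδ1-like sum between 3404 and 4664 CPM.

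Cell cycle genes lay slightly below 0 in members. The 24 cell cycle genes had a median log2 ratio of −0.16 with 0 past 2-fold, Mki67 stood at 150 against 162 CPM (−0.11, −0.25 to 0.02), and of 1961 barcodes with 5 or more UMIs of these genes at 4000 UMIs 4.79% (3.89 to 5.83) were members, against 4.86% (4.28 to 5.50) of 4936 others. With the rule applied at the same 4000 UMIs the shares were 1.73% (1.20 to 2.41) and 2.84% (2.39 to 3.34) and the median depths before thinning 14535 and 6531 UMIs. With Isg15 left out of the sum, where 130 barcodes passed, the cell cycle median was −0.64 and 65 genes in all were 2-fold lower. Of 8 BCL2 family and death genes compared, 4 lay above 0 and 4 below, 0 were past 2-fold and the median was −0.02. Casp8 was the highest of them at 0.69 and the BH3-only gene Bcl2l11 the lowest at −0.74. Casp1 and Casp4, under the limit, stood at 1.45 and 2.69. Immediate early genes, which cell handling can induce, had a median of −0.16, with Fosb at −1.10 and Fos at −0.50. Of the 13 immediate early genes compared, 1 passed 2-fold.

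The identity of members was checked against their gate. Trdc stood at 1945 against 1846 CPM and was found in every member at 4000 UMIs, and the 8 γδ TCR and CD3 genes had a median log2 ratio of 0.02. The V segments of the TCR, counted after other values had been seen, lay close: Trgv2 was found in 69.7% of members and 70.5% of zero-UMI barcodes, Tcrg-V1 in 28.3% (23.6 to 33.4) and 23.5%, and Tcrg-V4 in 22.4% (18.1 to 27.2) and 25.3%. Trdv2-2 was found in 11.1% (7.96 to 14.9) and 15.5% (14.5 to 16.5). The V segment shares, and the shares of Xist and Y-linked transcripts below, are at full depth. The median depth was 7571 UMIs in members and 6823 UMIs in zero-UMI barcodes. Xist without Y-linked transcripts was found in 46.9% of members (41.6 to 52.4) and 50.8% of zero-UMI barcodes, and Y-linked transcripts without Xist in 33.8% (28.8 to 39.1) and 32.2%. Both kinds of transcript were found in 9.62% of members (6.72 to 13.2) and 6.87% of zero-UMI barcodes (6.20 to 7.59), and the part of doublets in this was not tested.

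Markers of other cell types were counted in members over each whole list. Of 16 myeloid markers 10 had 0 UMIs, Lyz2, Csf1r and C1qa among them, and their sum was 137 CPM in members and 138 CPM in zero-UMI barcodes, nearly all of it Cst3. Of 10 plasmacytoid dendritic markers 5 had 0 UMIs, including the defining Siglech, and the sum of 1325 against 753 CPM came from Plac8 (1225 against 654 CPM, log2 ratio 0.91), which lymphocytes also express. Among 10 NK markers Ncr1, Klrb1c, Klra8, Klra9 and Klra4 were at 0 (57.5 against 54.2 CPM in all), as were 6 of 8 thymic epithelial and 6 of 6 erythroid markers. Of 12 B cell markers 1 was at 0, and they summed to 235 against 282 CPM. Doublets were weighed with a score: its automatic limit marked 1 barcode and so had not worked, and leaving out the 615 barcodes (8.36%) with the highest scores removed 26 members (7.58%).

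The same rule was applied to the other libraries. Lat-KO DN3 γδ− had the highest share past it with 9.89% (9.17 to 10.7), and Lat-KO DN3 γδint had 4.16% (3.62 to 4.76). Of the WT groups, DN3b γδ+ had 1.44% (1.23 to 1.67), DN4 γδ− 2.12% (1.87 to 2.39), DN3b γδ− 2.21% (2.0 to 2.44) and DN3a 3.96% (3.49 to 4.48), so that 5 of 6 lay below DN4 γδ+. The libraries differed in depth, with a median of 5878 to 19177 UMIs per kept barcode. At 4000 UMIs per barcode Lat-KO DN3 γδ− was highest with 5.11% (4.57 to 5.69), then came DN4 γδ+ with 2.52% (2.17 to 2.92), Lat-KO DN3 γδint with 2.21% (1.80 to 2.69) and DN3a with 1.83% (1.51 to 2.20), each overlapping the interval of its neighbour from DN4 γδ+ on. DN3b γδ+ (0.435%), DN4 γδ− (0.375%) and DN3b γδ− (0.374%) formed a lower set. Those were the 3 libraries of greater depth, at 15990 to 19177 UMIs per kept barcode against 5878 to 7387 in the 4 higher ones. The rule genes in B cell barcodes, at 75.2 CPM in DN4 γδ+ and at 22.2 to 118 CPM in the other 6, were 22.2 CPM in DN3b γδ+, 28.9 CPM in DN3b γδ− and 81.6 CPM in DN4 γδ−, the 3 libraries of the lower set. The part of depth, free RNA and library in this order was not tested.

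**Figure D5:**
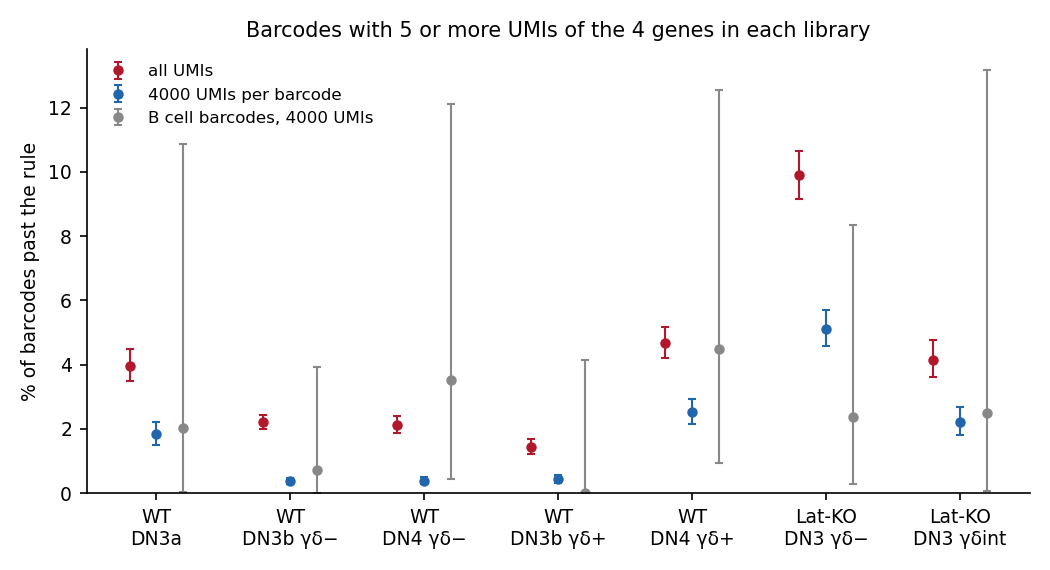
Percent of barcodes with 5 or more UMIs of the 4 genes in each library, for kept barcodes with all UMIs (red), kept barcodes at 4000 UMIs (blue) and spiked B cell barcodes at 4000 UMIs (grey), with 95% Clopper-Pearson intervals that cover counting error only. At 4000 UMIs, WT DN4 γδ+ (2.52%) is below Lat-KO DN3 γδ− (5.11%), overlaps Lat-KO DN3 γδint (2.21%) and lies above the 3 deep WT libraries; the B cell intervals are wide.

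Of the 30 genes highest in DN4 γδ+ members, those that also passed 20 CPM in another library were mostly 2-fold higher in its barcodes past the rule. This held for 7 of 7 in DN3b γδ+, 6 of 7 in DN3b γδ−, 3 of 4 in DN4 γδ− and 19 of 21 in DN3a. In the Lat-KO groups it held for 23 of 24 in γδint and 21 of 25 in γδ−. The share of all compared genes that was 2-fold higher there was 0.414% in DN3b γδ+, against 0.238% and 0.316% in the DN3b and DN4 groups without surface γδ TCR. It was 0.76% in DN3a, 0.79% in Lat-KO DN3 γδint and 0.871% in Lat-KO DN3 γδ−. The 20 CPM were taken over all kept barcodes of a library, those past the rule included. A gene could thus be counted in part through the barcodes where it was high. Irf7 was counted in both Lat-KO groups, with 10.5 CPM in the zero-UMI barcodes of γδint and 10.6 CPM in those of γδ−. Of the 15 genes lowest in DN4 γδ+, 5 to 7 passed 20 CPM in each other library and 0 of these were 2-fold lower there. The share of all compared genes that was 2-fold lower was 0.0185% in DN3a, 0.021% in DN4 γδ−, 0.0316% in Lat-KO DN3 γδint and 0.0% in the other 3. Maf was at 289 CPM in the zero-UMI barcodes of DN4 γδ+ and at most 17.3 CPM in those of the other libraries. In DN3b γδ+, the earlier γδ library, 4 γδ17-like genes passed 20 CPM with a median of −0.32, Sox13 at −0.44 (−0.68 to −0.21) and Blk at −0.21 (−0.48 to 0.05). Il7r, the interleukin-7 receptor chain, stood at 0.90 (0.76 to 1.04) in DN4 γδ+ and 1.01 (0.80 to 1.21) in DN3b γδ+, and between −0.08 and 0.09 in the other 5. The difference between libraries was not tested, as each is 1 sample.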

How the data were processed

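The authors deposited UMI counts per gene and barcode for 7 libraries (10x Genomics 3′ v3), unscaled and uncorrected, on mm10 carrying the reporter form of Trdc. The file headers name Cell Ranger 4.0.0 and the submitters' processing notes 5.0.1. Each file lists 32286 features. Gene positions come from GENCODE vM21.

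Here, counts were summed per gene over members and over zero-UMI barcodes of WT DN4 γδ+ and scaled to CPM (pandas 2.3.3 and scipy 1.17.1 under Python 3.11.15). Log2 ratios have exact conditional binomial 95% intervals and shares Clopper-Pearson ones. A count of 0 entered a ratio as 3 counts, and a gene at or under 3 in both sets had no ratio. Thinning drew 4000 UMIs per barcode without replacement. Scores for doublets came from scrublet (scanpy 1.11.5). The summing and ratio steps were tested on simulated data. Members and lists were chosen with earlier results of these data known. Named genes were the 4 rule genes, list genes, the 30 highest and 15 lowest ratios among genes of at least 20 CPM and 10 UMIs, and the 5 most like the rule genes over 6 bins. Other genes named were chosen after their values were seen. Some results are not reported here. No test compared groups, and depth per library and the alternatives are given elsewhere in the text.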

Additional observations from a re-analysis of the deposited data

Results flagged for a closer look

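Ccl4, a chemokine gene, differed in direction between 2 libraries. In WT DN4 γδ+ members it stood at 10.1 against 24.6 CPM in zero-UMI barcodes (log2 ratio −1.28, −1.83 to −0.79), and in barcodes past the rule of WT DN3b γδ+ its log2 ratio was 1.62 (1.47 to 1.77, 370 UMIs). In WT DN4 γδ+ it had 33 UMIs in members and was found in 4.96% of them. It was singled out because both ratios passed 2-fold in opposite directions at 20 CPM or more in the zero-UMI barcodes of both libraries. Without that minimum the same held for other low genes on few UMIs, such as Myo6 in WT DN3b γδ+ (1.35, 0.78 to 1.87, 31 UMIs), Nav2 in WT DN4 γδ− (3.18, 2.56 to 3.77, 31 UMIs) and Ccl5 in WT DN4 γδ− (3.58, 2.65 to 4.43, 16 UMIs). The difference was not tested, as each library is 1 sample.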

How the results depend on the processing

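The share of members was 8.31% at a limit of 3 UMIs and 2.11% at 10, 3.96% without Ifit1 and 1.77% without Isg15 in the sum, 4.0% with 200 genes and 15% mitochondrial UMIs, and 2.52% at 4000 UMIs per barcode. It stayed within its interval without Ifit3 or Rsad2, with 2000 genes and 5%, with no B cell UMI and without the highest doublet scores. The counts of higher and lower genes depended on the CPM minimum, which also set how many genes were compared. At 5 CPM they were 113 and 85 of 8979 genes, and at 50 CPM 22 and 6 of 2728. With no minimum they were 2390 and 539 of 14919. Of the 2390, 1448 had 0 UMIs in members and were counted only because a 0 entered as 3 counts, which left 942. At a fold of 4 and the minimum of 20 CPM, 27 genes were higher and 0 lower. Lower genes numbered 9 at a limit of 3 UMIs, 30 by the mean of per-barcode CPM, 38 at a limit of 10 UMIs and 74 in barcodes with under 5 cell cycle UMIs. In the interferon-stimulated list, 64 of 95 genes were higher at 5 CPM and 16 of 30 at 50 CPM (median 1.07). With no minimum 86 of 124 were higher (median 1.82), of which Ifitm1 had 0 UMIs in members. In this list 0 genes were lower, except 1 at 5 CPM and 2 with no minimum. Its median was 1.34 at a limit of 3 UMIs, 1.92 at 10, 1.90 without Isg15 in the sum, 1.77 in barcodes with few cell cycle UMIs and 1.5 with 20 CPM in zero-UMI barcodes, an alternative added after seeing the data. The γδ1-like median went to −0.11 at 10 UMIs and to −0.22 with few cell cycle UMIs, where the γδ17-like, NKT-type-like and immature medians were −1.34, −0.48 and −0.89. The NKT-type-like median was −0.10 over 3 genes at 20 CPM, 0.09 at 5 CPM and 0.44 with no minimum. The γδ17-like median was −0.81 at 5 CPM and −0.50 with no minimum. Scaling by TMM, weighting by depth and leaving out the highest doublet scores moved the counts of higher and lower genes by less than 1.5 times, and the interferon-stimulated median lay between 1.59 and 1.72. With limits of 3 and 10 UMIs, with 200 genes and 15%, and at 4000 UMIs, 5 of 6 other libraries lay below WT DN4 γδ+. Lat-KO DN3 γδint was nearly equal to it, with 8.26% against 8.31% at 3 UMIs and 3.94% against 4.0% with 200 genes and 15%. No paired analysis was possible because each group is 1 library. Depth limits what can be said of genes under 20 CPM. The causes of these shifts were not tested, except that a lower minimum adds genes of few counts.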
